A study of Mus musculus with 4 samples.

Results

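Amino acid catabolism and the urea cycle were examined in mouse liver as a set of 46 genes, taken by gene symbol from the annotation of the array's probe sets. A probe set is a group of short probes that report on 1 transcript, and only probe sets annotated with a single gene were used. Of the 46 genes, 43 had such a probe set, among 12393 genes on the whole array. Ass1, Amt and Sdsl had none and have no value here. Of the 43, 42 exceeded a floor of 16 intensity units on 1 array or more and are called measured, whereas Kynu lay at the floor on every array. The rule that defines the set is membership of these pathways.

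Liver RNA of male mice aged 12 to 20 weeks was compared between 4 groups, namely fasted PPARα-null, fasted wild-type, fed PPARα-null and fed wild-type mice. PPARα-null mice belonged to the 129S4/SvJae substrain and wild-type mice to 129S1/SvImJ, so a genotype effect and a substrain effect cannot be told apart. The null mice lack PPARα in every tissue. The fasted groups had no chow for 24 hours counted from light onset, and livers of the fed groups were taken when the dark period closed. RNA from the 5 animals of a group was combined before hybridization to a single MOE430A array, although the sources differ on whether each pool contained all of them. Each value is therefore 1 pool, with no replicate error and no p-value, and a gene was counted as higher or lower when 2 arrays differed by 1.5-fold or more, the threshold the study's methods used for pooled arrays.

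The liver is the main site at which amino groups are removed from amino acids and turned into urea. Aminotransferases pass the amino group to glutamate or aspartate, the urea cycle packs the nitrogen into urea, and the carbon skeletons are either oxidised or used to make glucose, which matters most when no food is eaten. Glucagon and glucocorticoids are known to raise several of these enzymes in fasting. PPARα is a nuclear receptor for fatty acids that is best known for driving fatty acid oxidation in fasted liver, and several amino acid dehydrogenases share with fatty acid oxidation the same mitochondrial acceptor of electrons.

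Promoter sequences of 5 genes are shown because each stands for a pattern described further on. Got1 and Aass were higher in fasted than in fed liver of both genotypes, Haao was lower in both, and Prodh and Hibch had the widest differences between the genotypes in the fasted state in their brightest probe sets. The sequences are the 250 bases before the start site in RefSeq (build GRCm38.p6), read 5′ to 3′ along the gene. Capitals mark exact matches on either strand to AGGTCA, the half-site of many nuclear receptors (TGACCT on the opposite strand), or to TGACG, the half-site of the cyclic AMP response element (CGTCA on the opposite strand).

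Got1, chr19:43524606-43524855, minus strand: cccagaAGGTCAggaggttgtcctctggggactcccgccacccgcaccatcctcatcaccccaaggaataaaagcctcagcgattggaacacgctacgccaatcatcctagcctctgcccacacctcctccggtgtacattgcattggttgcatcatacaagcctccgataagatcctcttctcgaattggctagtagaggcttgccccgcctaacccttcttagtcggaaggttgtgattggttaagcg
Aass, chr6:23132987-23133236, minus strand: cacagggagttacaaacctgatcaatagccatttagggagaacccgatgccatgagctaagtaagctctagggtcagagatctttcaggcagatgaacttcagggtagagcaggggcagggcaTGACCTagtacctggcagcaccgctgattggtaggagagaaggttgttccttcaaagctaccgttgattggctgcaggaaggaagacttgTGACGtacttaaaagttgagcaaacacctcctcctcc
Haao, chr17:83846791-83847040, minus strand: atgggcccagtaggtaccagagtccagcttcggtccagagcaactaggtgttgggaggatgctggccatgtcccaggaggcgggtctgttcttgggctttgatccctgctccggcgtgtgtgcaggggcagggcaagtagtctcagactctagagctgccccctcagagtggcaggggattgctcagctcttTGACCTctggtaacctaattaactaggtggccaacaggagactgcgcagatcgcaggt
Prodh, chr16:18089191-18089440, minus strand: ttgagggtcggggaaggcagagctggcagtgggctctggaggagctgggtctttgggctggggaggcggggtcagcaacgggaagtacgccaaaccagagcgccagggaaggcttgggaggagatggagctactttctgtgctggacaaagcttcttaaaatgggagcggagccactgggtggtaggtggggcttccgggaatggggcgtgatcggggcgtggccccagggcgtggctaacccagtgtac
Hibch, chr1:52844788-52845037, plus strand: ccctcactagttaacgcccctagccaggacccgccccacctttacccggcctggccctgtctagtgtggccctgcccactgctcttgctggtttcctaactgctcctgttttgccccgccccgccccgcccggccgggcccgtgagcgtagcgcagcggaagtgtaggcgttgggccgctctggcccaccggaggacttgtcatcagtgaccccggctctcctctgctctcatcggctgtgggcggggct

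In Got1 the AGGTCA match began 244 bases before the start site. In Aass a TGACCT match began 127 bases and a TGACG match 37 bases before it, and in Haao a TGACCT match began 58 bases before it. The windows printed for Prodh and Hibch held no match. Over windows of 250 bases before to 50 after the start, 14 of 42 promoters of the gene set (33.3%, from 37 genes) contained the nuclear receptor half-site, beside 16.3% of all 32851 promoters. The cyclic AMP half-site was in 4 of the 42 (9.52%), beside 20.8% of all promoters. A direct repeat of AGGTCA with 1 base between, the arrangement that PPARα binds and one that by construction also counts as a half-site match, was in 0 of the 42 and in 13 of all promoters (0.0396%). These are matches of letters in a short window and not measured binding. Cps1, Asl, Arg1, Kynu, Gpt, Dbt, Cdo1, Sdsl and Dpys had no entry in the promoter table.

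The Ppara probe set read 16.3 units in fasted PPARα-null and 755 units in fasted wild-type liver, and 104 units in fed PPARα-null and 583 units in fed wild-type liver, in the direction of the labels. All 8 measured hepatocyte markers were within 1.5-fold in every comparison, whereas 7 of 8 kidney tubule markers were at the floor on all arrays. The eighth, Slc5a2, read between 64.3 and 75.5 units. Markers of Kupffer cells and macrophages summed to 948 units in fasted PPARα-null, 455 units in fasted wild-type, 817 units in fed PPARα-null and 756 units in fed wild-type liver, with Cd68 at the floor on all arrays. Exocrine pancreas markers summed to 176 and 164 units in fasted PPARα-null and fasted wild-type liver, and to 973 and 684 units in fed PPARα-null and fed wild-type liver. Most of this sum in the fed pools came from Cela1, and Cpa1 was at the floor on all arrays. In whole liver fewer cells of a type and less RNA per cell cannot be told apart. As the only internal measure of error, log2 differences of probe sets of the same gene scattered around their mean with an SD of 0.30 for the fasted genotype comparison, 0.19 for the fed one, 0.24 for fasting in wild-type and 0.37 for fasting in PPARα-null liver (861 genes with several bright probe sets). This scatter leaves out the spread between mice and between arrays.

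With fasting, the aminotransferases Got1 and Gpt2, the urea cycle enzyme Asl and the lysine enzyme Aass were more than 2-fold higher in both genotypes, and Haao of the kynurenine route was more than 2-fold lower in both. In PPARα-null liver 11 of the 42 measured genes (26.2%) were higher after fasting, where 12.4% of all 6947 measured genes were, and 5 (11.9%) were lower, where 18.0% of all genes were. Among all genes at 64 units or more on at least 1 array, a level that 39 of the 42 reached, 16.8% were higher and 25.1% lower. In wild-type liver 5 genes (11.9%) were higher, beside 8.20% of all genes, and 3 (7.14%) were lower, beside 8.29%. The 5 higher genes in wild-type were Got1, Gpt2, Asl, Aass and Bckdha, and all 5 were also higher in PPARα-null liver. Kmo, Haao and Ddc were lower in both genotypes. Arg1, Tat, Aadat, Prodh, Gpt and Cdo1 reached the threshold in PPARα-null liver but not in wild-type liver, and Hibch and Dpys were lower in PPARα-null liver without reaching it in wild-type liver. Of all genes too, larger shares passed the threshold in PPARα-null liver (12.4% and 18.0%) than in wild-type liver (8.20% and 8.29%). Calls shared by the genotypes or found in PPARα-null liver alone were not counted over all genes, so they are not a trait of this set. The median log2 difference of the set was -0.09 in PPARα-null and 0.22 in wild-type liver, with medians of -0.01 and 0.00 over all genes. Centring each array on its bright probe sets moved fasting differences in PPARα-null liver up by 0.13, apart from those with an array at the floor. This put the median of the set at 0.04 and that of all genes at 0.09. The set then had 11 higher and 3 lower genes, beside 15.9% and 14.4% of all genes. Exocrine pancreas markers were lower in the fasted pools (5 of 7 measured in PPARα-null and 1 of 7 in wild-type liver), and of 10 measured Kupffer cell and macrophage markers 3 were higher and 1 lower with fasting in PPARα-null liver and 5 were lower in wild-type liver. Their part in the fasting values was not tested.

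The genotype comparison gave genes past the threshold in the fasted state alone. There 3 of 42 genes (7.14%), Prodh, Got1 and Tat, were higher in PPARα-null than in wild-type liver, beside 8.58% of all genes. Another 5 (11.9%), namely Hibch, Gldc, Dpys, Gcdh and Bcat2, were lower, beside 13.6% of all genes. Both shares of the set lay near or below those of all genes. The median was -0.10, against -0.01 over all genes. Centring on bright probe sets, however, moved differences of this comparison up by 0.15, apart from those with an array at the floor. It moved the median of the set to 0.05 and that of all genes to 0.10. The set still had 3 higher and 5 lower genes under that centring, beside 12.6% and 10.2% of all genes. In the fed state 0 genes were higher and 0 lower, beside 2.38% and 2.12% of all genes, with a median of 0.02. The widest fed differences were those of Aadat, 1.47-fold lower in PPARα-null liver, and Csad, 1.45-fold higher.

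**Figure D1:**
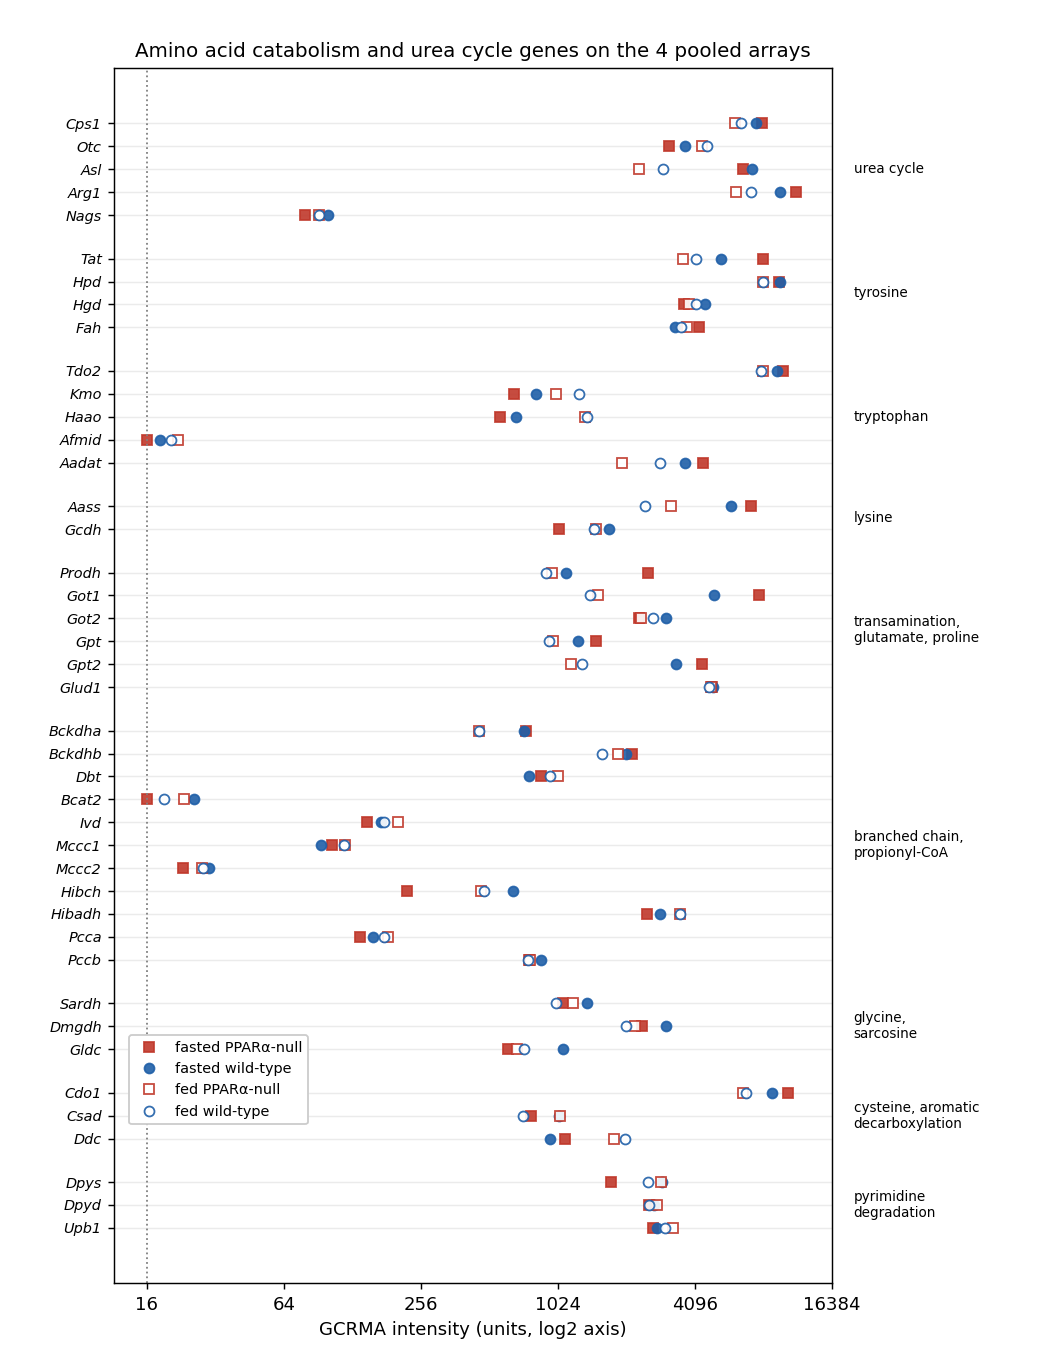
GCRMA intensity in units on a log2 axis for the 42 measured genes, grouped by pathway, with 1 point for each pooled array (red squares PPARα-null, blue circles wild-type, filled fasted, open fed). A dotted vertical marks the floor, 16 units. For Got1, Gpt2, Asl and Aass both filled points sit right of both open points, and for Haao and Ddc both sit left of them.

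**Figure D2:**
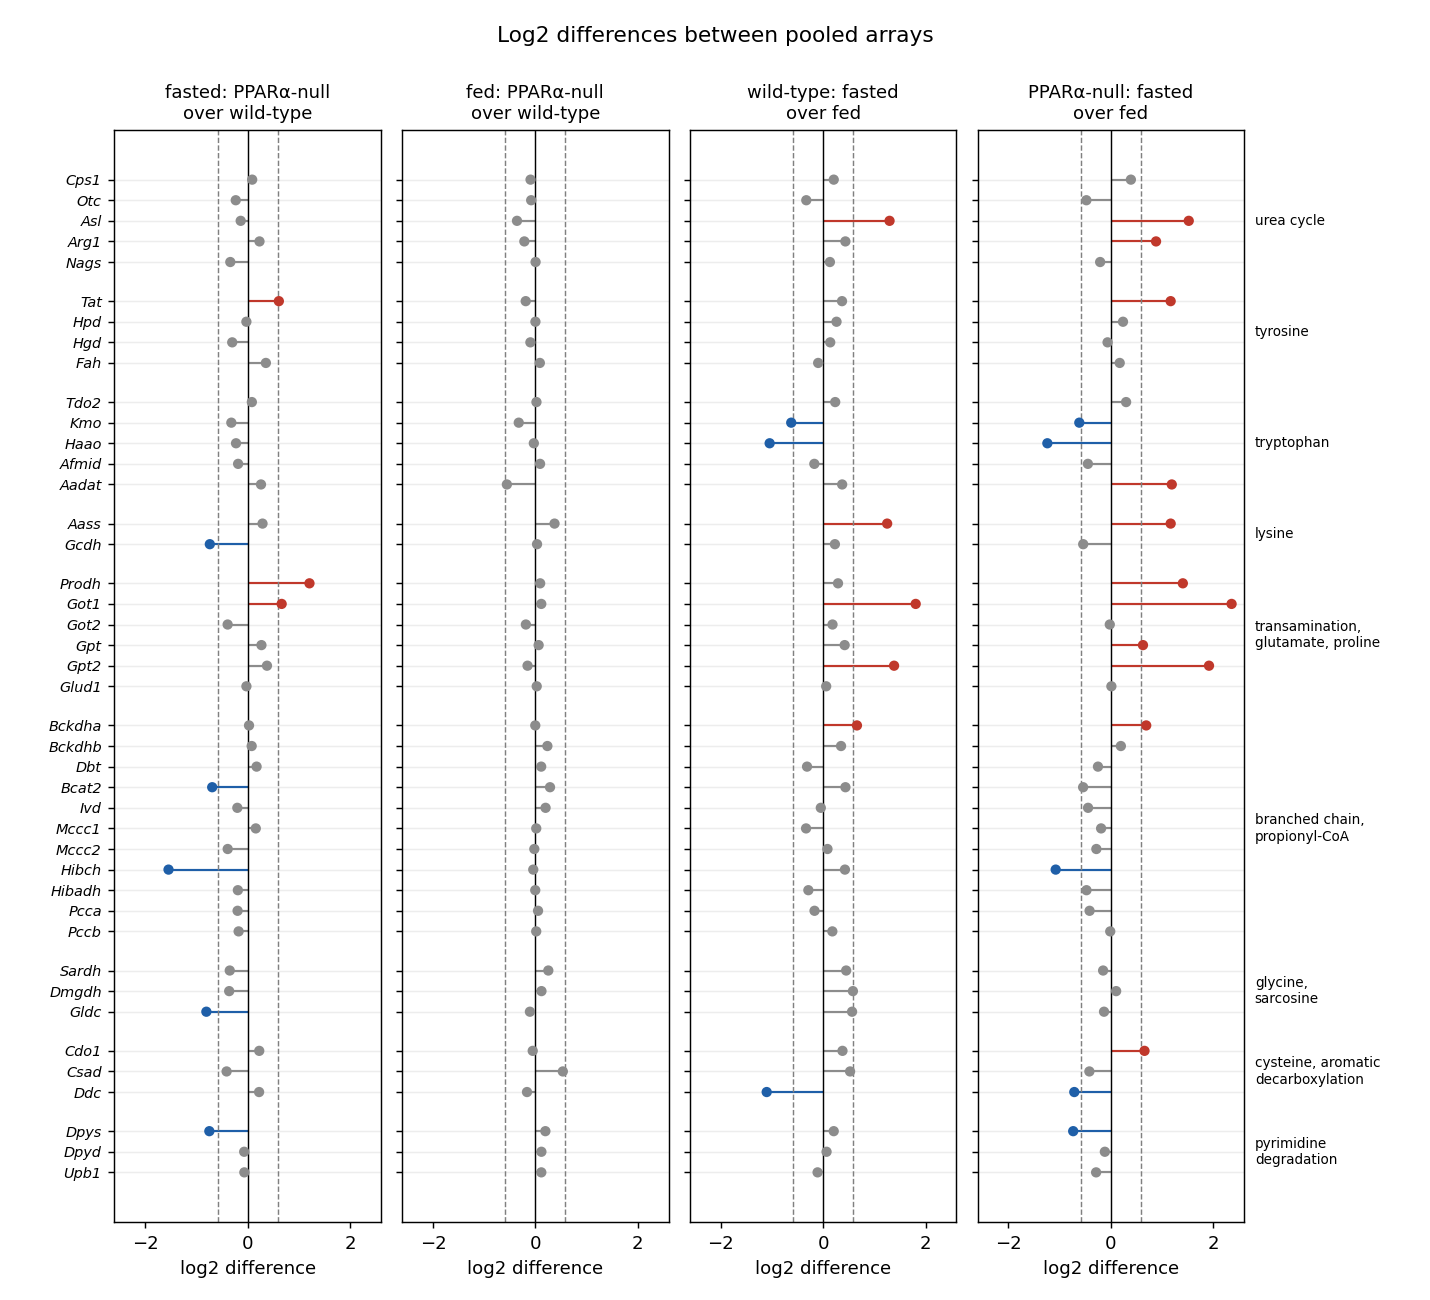
Log2 differences of the 42 measured genes in the 4 comparisons, with dashed lines at 1.5-fold, red for higher and blue for lower past that threshold. The fed genotype panel has 0 genes past the lines, and the panel for fasting in PPARα-null liver has 11 higher and 5 lower.

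Got1 and Gpt2, which move amino groups between amino acids, had the widest fasting differences upward in both genotypes. Got1, the cytosolic aspartate aminotransferase, read 7862 units in fasted PPARα-null, 4961 units in fasted wild-type, 1536 units in fed PPARα-null and 1418 units in fed wild-type liver. Both fasted pools were well above both fed pools, and the fasted null pool was the highest of the 4. Got1 was 5.12-fold higher with fasting in PPARα-null and 3.50-fold higher in wild-type liver, and 1.58-fold higher in the fasted null than in the fasted wild-type pool. Gpt2, the mitochondrial alanine aminotransferase that links alanine to pyruvate, read 4409 units in fasted PPARα-null, 3393 units in fasted wild-type, 1169 units in fed PPARα-null and 1300 units in fed wild-type liver. It followed the same order of fasted above fed, 3.77-fold higher with fasting in PPARα-null and 2.61-fold higher in wild-type liver. This probe set carries a suffix that marks probes with possible matches to other transcripts, and a dimmer Gpt2 probe set without one gave log2 differences of 3.05 and 2.42 for the same comparisons, and 0.82 between fasted PPARα-null and fasted wild-type liver, where the brightest probe set gave 0.38. The cytosolic alanine aminotransferase gene Gpt read 1510 units in fasted PPARα-null, 1253 units in fasted wild-type, 979 units in fed PPARα-null and 936 units in fed wild-type liver. Its fasting difference reached 1.54-fold in PPARα-null liver and was 1.34-fold in wild-type liver. The only Gpt probe set also carries the suffix, so Gpt has no value without suffixed probe sets.

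The mitochondrial enzymes Got2 and Glud1 stayed within 1.5-fold in their brightest probe sets. Got2, the mitochondrial aspartate aminotransferase, read 2328 units in fasted PPARα-null, 3051 units in fasted wild-type, 2363 units in fed PPARα-null and 2687 units in fed wild-type liver. A dimmer Got2 probe set read 392 units in fasted PPARα-null, 667 units in fasted wild-type, 440 units in fed PPARα-null and 444 units in fed wild-type liver. Its log2 differences passed the threshold between the fasted genotypes (-0.77) and for fasting in wild-type liver (0.59). Glud1, the glutamate dehydrogenase that frees ammonia from glutamate, lay between 4737 and 4936 units on all 4 arrays. Prodh, the proline dehydrogenase that opens proline breakdown in mitochondria, read 2555 units in fasted PPARα-null, 1107 units in fasted wild-type, 965 units in fed PPARα-null and 905 units in fed wild-type liver. One pool stood out, with 3 arrays close together and fasted PPARα-null liver far above them. Prodh was 2.31-fold higher in the fasted null than in the fasted wild-type pool and 2.65-fold higher with fasting in PPARα-null liver, but 1.22-fold higher with fasting in wild-type liver.

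In the urea cycle Asl and Arg1 differed with fasting, while the other measured members stayed within the threshold in their brightest probe sets. Asl, the argininosuccinate lyase that releases arginine and fumarate, read 6657 units in fasted PPARα-null, 7311 units in fasted wild-type, 2322 units in fed PPARα-null and 2977 units in fed wild-type liver. Fasted pools of both genotypes were thus far above fed pools, 2.87-fold in PPARα-null and 2.46-fold in wild-type liver. Arg1, the arginase that splits arginine into urea and ornithine, read 11411 units in fasted PPARα-null, 9718 units in fasted wild-type, 6194 units in fed PPARα-null and 7191 units in fed wild-type liver. It was 1.84-fold higher with fasting in PPARα-null liver and 1.35-fold higher in wild-type liver. The first enzyme of the cycle, carbamoyl phosphate synthetase, is encoded by Cps1, which read 8049 units in fasted PPARα-null, 7567 units in fasted wild-type, 6140 units in fed PPARα-null and 6555 units in fed wild-type liver. Its largest difference was 1.31-fold, for fasting in PPARα-null liver.

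Otc, the ornithine transcarbamylase that uses carbamoyl phosphate, went the other way. It read 3146 units in fasted PPARα-null, 3694 units in fasted wild-type, 4382 units in fed PPARα-null and 4639 units in fed wild-type liver. Both fasted pools lay below both fed pools, with log2 differences of -0.48 in PPARα-null and -0.33 in wild-type liver. A second bright Otc probe set read 2481 units in fasted PPARα-null, 3290 units in fasted wild-type, 4391 units in fed PPARα-null and 3989 units in fed wild-type liver, and its fasting difference in PPARα-null liver, -0.82, passed the threshold. Nags makes N-acetylglutamate, the obligate activator of carbamoyl phosphate synthetase, and was dim on this array. Its values were 79.0 units in fasted PPARα-null, 99.8 units in fasted wild-type, 91.3 units in fed PPARα-null and 91.1 units in fed wild-type liver. In the brightest probe sets none of the 5 measured urea cycle genes differed by 1.5-fold between the genotypes in either feeding state. The widest such difference was a log2 value of -0.36, for Asl in the fed state. The second bright Otc probe set gave -0.41 between the fasted genotypes. With the log2 values of all its probe sets averaged before the floor was set, Otc was at -0.62 in the fasted state, an average that includes a dim probe set whose fasted null value lay under the floor.

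Of the tyrosine pathway only the entry enzyme passed the threshold. Tat, the tyrosine aminotransferase long known as a glucocorticoid-induced liver enzyme, read 8166 units in fasted PPARα-null, 5352 units in fasted wild-type, 3638 units in fed PPARα-null and 4146 units in fed wild-type liver. The fasted null pool was highest, 1.53-fold above fasted wild-type liver and 2.24-fold above fed PPARα-null liver. In wild-type liver the fasting difference was 1.29-fold. Hpd, Hgd and Fah, which carry out later steps down to fumarate and acetoacetate, stayed within 1.5-fold in all comparisons. Their widest log2 difference was 0.36, for Fah between fasted PPARα-null and fasted wild-type liver.

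The tryptophan pathway held genes with opposite fasting differences. Tdo2, the dioxygenase that opens the tryptophan ring, was bright and flat, between 7996 and 9970 units. Kmo, the hydroxylase acting on kynurenine, read 658 units in fasted PPARα-null, 820 units in fasted wild-type, 1008 units in fed PPARα-null and 1263 units in fed wild-type liver. Haao, the dioxygenase that leads on to quinolinate and NAD, read 571 units in fasted PPARα-null, 668 units in fasted wild-type, 1350 units in fed PPARα-null and 1378 units in fed wild-type liver. Both genes were lower in the fasted pools of both genotypes. Kmo had log2 differences of -0.62 in PPARα-null and -0.62 in wild-type liver, near the threshold, and the PPARα-null value was no longer past it with arrays centred on bright probe sets (-0.49) or after a further quantile normalization (-0.54). Haao was 2.36-fold lower with fasting in PPARα-null and 2.06-fold lower in wild-type liver.

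Aadat, an aminotransferase of both kynurenine and the lysine product aminoadipate, was on the opposite side. It read 4451 units in fasted PPARα-null, 3714 units in fasted wild-type, 1953 units in fed PPARα-null and 2872 units in fed wild-type liver. The fed null pool was the lowest and the fasted null pool the highest, and fasting gave a 2.28-fold higher value in PPARα-null and a 1.29-fold higher value in wild-type liver. Afmid, the formamidase of this pathway, read between the floor and 21.8 units, too dim for a comparison. In lysine breakdown, Aass, the bifunctional enzyme of the first steps, read 7195 units in fasted PPARα-null, 5882 units in fasted wild-type, 3205 units in fed PPARα-null and 2474 units in fed wild-type liver. Aass was therefore higher with fasting in both genotypes, 2.25-fold in PPARα-null and 2.38-fold in wild-type liver. It was higher in PPARα-null liver within the threshold, with log2 differences of 0.29 in the fasted and 0.37 in the fed state.

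Gcdh, the glutaryl-CoA dehydrogenase further down the lysine and tryptophan routes, had another pattern. It read 1033 units in fasted PPARα-null, 1723 units in fasted wild-type, 1503 units in fed PPARα-null and 1469 units in fed wild-type liver. The fasted null pool was the low one, 1.67-fold below fasted wild-type liver, and the fasting differences had log2 values of -0.54 in PPARα-null and 0.23 in wild-type liver, neither past the threshold. Gldc, the decarboxylase of the glycine cleavage system, read 616 units in fasted PPARα-null, 1076 units in fasted wild-type, 676 units in fed PPARα-null and 727 units in fed wild-type liver. Here fasted wild-type liver was the high pool, and Gldc was 1.75-fold lower in fasted PPARα-null liver. Sardh and Dmgdh, mitochondrial dehydrogenases of sarcosine and dimethylglycine, had the same order of the 2 fasted pools below the threshold, with log2 differences of -0.35 and -0.36 between fasted PPARα-null and fasted wild-type liver. With fasting in wild-type liver Dmgdh and Gldc lay just under the threshold of 0.585 on the log2 scale, at 0.58 and 0.56.

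**Figure D3:**
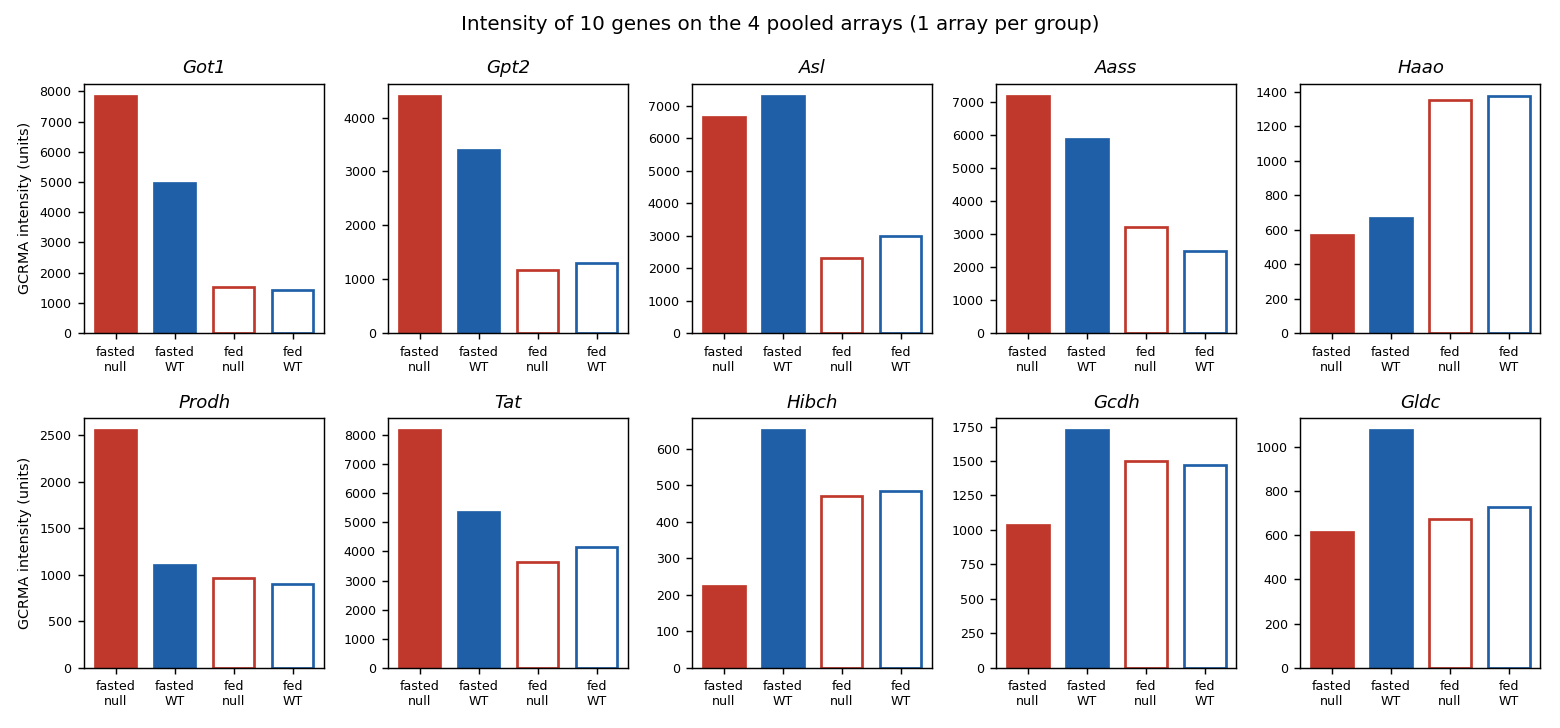
GCRMA intensity in units of 10 genes on the 4 pooled arrays, 1 bar per array, with axes that start at 0 (red PPARα-null, blue wild-type, filled fasted, open fed). Got1, Gpt2, Asl and Aass were high in both fasted pools and Haao in both fed pools, Prodh and Tat were highest in fasted PPARα-null liver, and Hibch, Gcdh and Gldc were highest in fasted wild-type liver.

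Among 11 genes of branched-chain amino acid and propionyl-CoA breakdown, 8 stayed within 1.5-fold in all 4 comparisons. Bckdha, a subunit of the dehydrogenase complex that commits branched-chain keto acids to oxidation, read 741 units in fasted PPARα-null, 727 units in fasted wild-type, 459 units in fed PPARα-null and 460 units in fed wild-type liver. The genotypes read nearly the same within each feeding state, and fasting gave 1.61-fold higher values in PPARα-null and 1.58-fold higher values in wild-type liver. Bckdhb and Dbt, the other subunits listed, did not share this difference, with log2 values for fasting in PPARα-null liver of 0.19 and -0.25.

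Hibch, the hydrolase that frees 3-hydroxyisobutyrate in valine breakdown, had a log2 genotype difference of -1.54 in the fasted state in its brightest probe set. It read 223 units in fasted PPARα-null, 650 units in fasted wild-type, 471 units in fed PPARα-null and 484 units in fed wild-type liver. The fed pools lay close together, and the fasted null pool was 2.92-fold below fasted wild-type and 2.11-fold below fed PPARα-null liver. This probe set also carries such a suffix, and the second Hibch probe set was dimmer, with 52.6 units in fasted PPARα-null, 75.0 units in fasted wild-type, 60.1 units in fed PPARα-null and 64.2 units in fed wild-type liver. It had the same sign but did not reach the threshold, with a log2 difference of -0.51 between the fasted pools, and the average of both was -1.03. Hibadh, which acts on the product of Hibch, was within the threshold in all comparisons. Between the fasted pools its brightest probe set gave -0.19 and a second bright one 0.19.

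The remaining genes of this group were dim or flat. Bcat2, the mitochondrial branched-chain aminotransferase, was at the floor in fasted PPARα-null liver and read 25.8 units in fasted wild-type, 23.3 units in fed PPARα-null and 19.1 units in fed wild-type liver, so that it was at least 1.61-fold lower in the fasted null than in the fasted wild-type pool, on values close to the floor. Mccc2, a subunit of methylcrotonyl-CoA carboxylase in leucine breakdown, lay between 23.0 and 30.1 units. Its partner Mccc1 lay between 92.9 and 118 units, and Ivd, the isovaleryl-CoA dehydrogenase before it, between 149 and 203 units. Pcca and Pccb, the subunits of propionyl-CoA carboxylase, had log2 differences of -0.20 and -0.18 between fasted PPARα-null and fasted wild-type liver. A dimmer Ivd probe set had a log2 difference of -0.88 with fasting in PPARα-null liver, where the brighter one gave -0.45.

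Of the cysteine and aromatic amine enzymes, Cdo1 passed the threshold with fasting in PPARα-null liver, Ddc in both genotypes and Csad in neither. Cdo1, the cysteine dioxygenase that disposes of cysteine sulphur, read 10467 units in fasted PPARα-null, 8944 units in fasted wild-type, 6642 units in fed PPARα-null and 6885 units in fed wild-type liver. Fasted pools were the higher ones, 1.58-fold in PPARα-null and 1.30-fold in wild-type liver, and the PPARα-null value was 0.52 on the log2 scale, under the threshold, after a further quantile normalization. Csad, the decarboxylase that leads from cysteine to taurine, read 780 units in fasted PPARα-null, 1036 units in fasted wild-type, 1043 units in fed PPARα-null and 720 units in fed wild-type liver. No comparison of Csad passed the threshold, and its fasting differences had opposite signs, -0.42 in PPARα-null and 0.53 in wild-type liver.

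Ddc, the decarboxylase that forms aromatic amines, read 1098 units in fasted PPARα-null, 940 units in fasted wild-type, 1801 units in fed PPARα-null and 2017 units in fed wild-type liver. It was lower in both fasted pools, 1.64-fold in PPARα-null and 2.15-fold in wild-type liver. The PPARα-null value was -0.58 and just under the threshold with centring on bright probe sets. In pyrimidine degradation, whose last products include β-alanine, Dpys, the dihydropyrimidinase, read 1749 units in fasted PPARα-null, 2936 units in fasted wild-type, 2913 units in fed PPARα-null and 2544 units in fed wild-type liver. The fasted null pool was the low one, 1.68-fold below fasted wild-type and 1.67-fold below fed PPARα-null liver. A second Dpys probe set pointed the same way below the threshold, with -0.52 and -0.34 for the same comparisons. Dpyd and Upb1, the steps before and after, were within 1.5-fold throughout.

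Fasting differences were then set side by side between the genotypes, as comparisons that share no array. Across the 42 genes the log2 fasting difference in PPARα-null liver and that in wild-type liver had a Pearson r of 0.76 and a Spearman rho of 0.62, and 28 genes had the same sign in both. Across all 6947 measured genes r was 0.58 and rho 0.53, and 4393 had the same sign, a share close to that of the set. Genes within an array are not independent replicates, so these values describe the 4 arrays only. The difference between the responses, PPARα-null minus wild-type, was past 1.5-fold upward for Prodh (1.11), Aadat (0.82) and Tat (0.80). It was past 1.5-fold downward for 7 genes, namely Hibch (-1.50), Csad (-0.95), Dpys (-0.94), Gcdh (-0.77), Gldc (-0.70), Sardh (-0.60) and Bcat2, whose value of -0.98 is only a bound because its fasted null pool was at the floor. These were 7.14% and 16.7% of the set, beside 9.14% and 14.9% of all genes. The values are those of the brightest probe sets. A second bright Sardh probe set had a narrower gap, with fasting differences of 0.13 in PPARα-null and 0.57 in wild-type liver. So had second probe sets of Dpys (-0.34 and 0.07) and, dimmer, of Hibch (-0.19 and 0.22), in the same order of genotypes. None of these gaps reached 1.5-fold. Dimmer probe sets of Gpt2 (3.05 and 2.42), Got2 (-0.17 and 0.59) and Ivd (-0.88 and -0.20) had gaps past 1.5-fold, unlike the brightest ones. The list of genes therefore depends on the probe set chosen. By contrast the genotype differences in the fasted and in the fed state, which also share no array, had an r of -0.10 across the set and 0.27 across all genes, and the markers of Kupffer cells and macrophages moved with the same fasted comparison, 7 of 10 measured being higher in PPARα-null liver. Their part in these values was not tested.

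**Figure D4:**
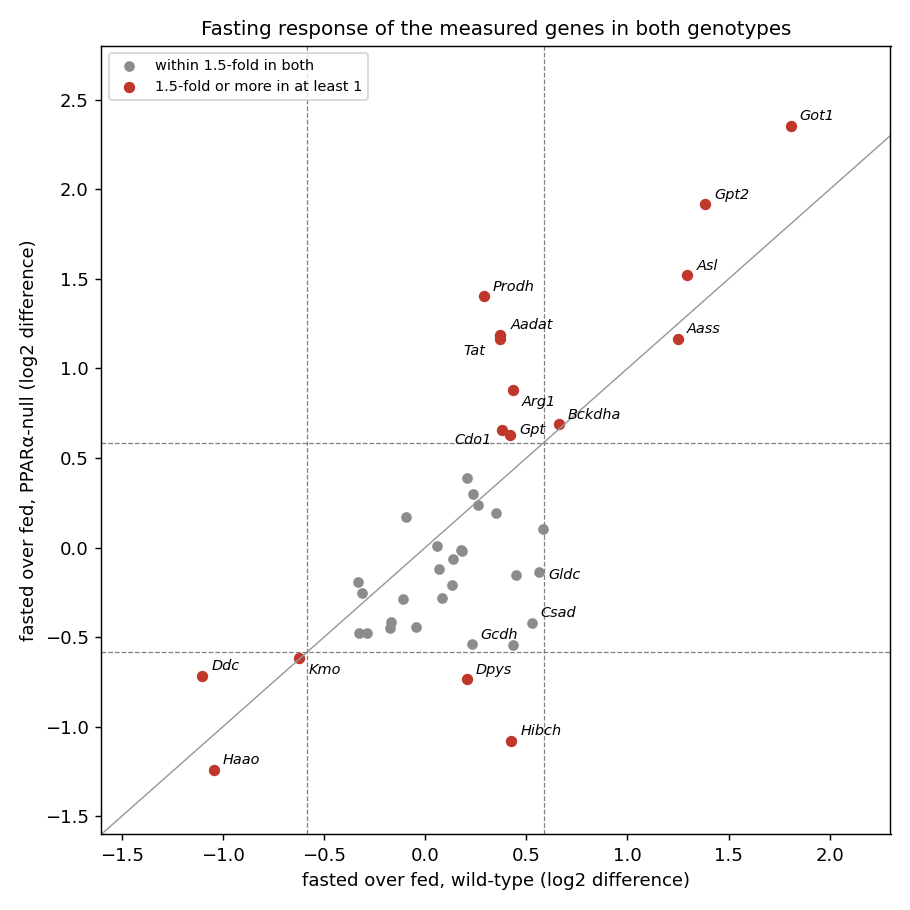
Log2 fasting difference in PPARα-null (vertical) against wild-type liver (horizontal) for the 42 measured genes, with dashed lines at 1.5-fold and the diagonal of equal differences. Got1, Gpt2, Asl and Aass lie at the upper right, Haao, Kmo and Ddc at the lower left, Prodh, Tat and Aadat above the diagonal, and Hibch and Dpys below it.

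A second list of 50 gene symbols of amino acid breakdown, ammonia handling and transport outside the set was described the same way. It holds Mut and Mmut, the old and new symbols of the same gene, and 37 genes of the list were measured. In fasted PPARα-null against fasted wild-type liver 3 stood higher (8.11%) and 7 lower (18.9%) and the median was -0.06, beside 8.58% and 13.6% of all genes. With fasting in PPARα-null liver the counts were 3 higher (8.11%) and 10 lower (27.0%) and the median was -0.21, beside 12.4% and 18.0% of all genes. In wild-type liver 6 were higher (16.2%) and 2 lower (5.41%) with fasting, beside 8.20% and 8.29% of all genes. In the fed state 1 was higher and 0 lower in PPARα-null liver, beside 2.38% and 2.12%. Slc7a2, a transporter of arginine and other cationic amino acids, read 1123 units in fasted PPARα-null, 714 units in fasted wild-type, 191 units in fed PPARα-null and 266 units in fed wild-type liver. Its fasting differences of 5.89-fold in PPARα-null and 2.69-fold in wild-type liver had the direction of those of Asl and Arg1. Between the fasted pools its probe sets disagreed in sign, with 0.65 in the brightest and -0.55 in a dimmer one. Slc25a13, the mitochondrial aspartate and glutamate carrier that supplies the urea cycle with aspartate, read 698 units in fasted PPARα-null, 1855 units in fasted wild-type, 556 units in fed PPARα-null and 769 units in fed wild-type liver. It was high in the fasted wild-type pool alone, and 2.66-fold lower in fasted PPARα-null liver.

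Hsd17b10, a dehydrogenase of isoleucine and fatty acid breakdown, had a like pattern. It read 1138 units in fasted PPARα-null, 3839 units in fasted wild-type, 1139 units in fed PPARα-null and 1113 units in fed wild-type liver, and was 3.37-fold lower in the fasted null than in the fasted wild-type pool. The serine hydroxymethyltransferase genes Shmt1 and Shmt2, which interconvert serine and glycine, were low in the fasted null pool. Shmt1 read 192 units in fasted PPARα-null, 595 units in fasted wild-type, 511 units in fed PPARα-null and 581 units in fed wild-type liver. Shmt2 read 539 units in fasted PPARα-null, 1237 units in fasted wild-type, 1467 units in fed PPARα-null and 1635 units in fed wild-type liver. The next brightest Shmt2 probe set, at 150 units in fasted PPARα-null and 279 units in fasted wild-type liver, had a log2 difference of -0.90. The brightest Shmt2 probe set carries the suffix for possible matches to other transcripts, and the next brightest does not. Dimmer Shmt2 probe sets gave -0.07, on values at or near the floor, and -0.14 between the fasted pools. Gldc, which also acts on glycine, was 1.75-fold lower in the same comparison, but its fasting differences were unlike theirs. They were -0.13 in PPARα-null and 0.56 in wild-type liver for Gldc. Those of Shmt1 were -1.41 and 0.03, and those of Shmt2 -1.44 and -0.40, in the same order.

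Amdhd1, an enzyme of histidine breakdown, was 2.44-fold lower in fasted PPARα-null liver, at 1247 units in the null and 3047 units in the wild-type pool. Hao1, the peroxisomal glycolate oxidase, was lower with fasting in both genotypes, with log2 differences of -1.47 in PPARα-null and -0.94 in wild-type liver, as Haao was. Asns, the asparagine synthetase that amino acid shortage is known to induce, read 315 units in fasted PPARα-null, 124 units in fasted wild-type, 227 units in fed PPARα-null and 84.2 units in fed wild-type liver. It was the gene of this second list that was higher in PPARα-null liver in the fed state, with a log2 difference of 1.43, and it also stood higher in the fasted state, at 1.34. This Asns probe set carries the suffix for possible matches to other transcripts. A second, dimmer Asns probe set without it gave log2 differences of 1.34 in the fed and 1.86 in the fasted state.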

How the data were processed

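RNA of 4 pools was hybridized to 4 Affymetrix MOE430A arrays. The deposited values are intensities made by the authors with GCRMA, a method that corrects background from probe sequence, applies quantile normalization between arrays and gives 1 value per probe set on a linear scale. The submitters' notes name version 2.20. The sources used here do not say which arrays shared a normalization, and scanner files were not used. Here values were converted to log2. Of 22690 probe sets, 64 are controls, 20393 name 1 gene, 691 several and 1606 none in the annotation used, and 20364 symbols were matched to RefSeq gene identifiers. The median intensity was between 14.4 and 14.6 units on the 4 arrays.

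A gene took its brightest probe set by mean log2 value over the arrays. Values under 16 units were set to that floor, and a fold against an array at the floor is written as at least. Each comparison is a log2 difference of 2 arrays, with no test, and counts use 1.5-fold. The members and lists were chosen with earlier results of these data known. Genes described in full were those past 1.5-fold in a comparison with 128 units or more on the brighter array (18 genes), all measured urea cycle genes, and up to 8 genes of the second list. Got2, Csad and Bcat2 were added after their values were seen. Alternatives were a 2-fold threshold, no floor or a floor at 64 units, quantile normalization, centring on bright probe sets (no array under 64 units), leaving out suffixed probe sets, and averaging log2 values of probe sets before the floor was set. The steps were tested on simulated data. Python 3.11.15, numpy 2.4.6, pandas 2.3.3, scipy 1.17.1 and matplotlib 3.10.9 were used. The number of arrays limits the precision.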

Additional observations from a re-analysis of the deposited data

Results flagged for a closer look

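Some genes had differences of opposite sign in 2 settings, each larger than the scatter between probe sets of the same gene. This criterion was chosen after the data were seen, and with 1 array per group none of these differences was tested. For the fasting response, PPARα-null minus wild-type, the log2 gap was -1.50 for Hibch (-1.08 in PPARα-null and 0.43 in wild-type liver). It was -0.95 for Csad (-0.42 in PPARα-null and 0.53 in wild-type liver). For the genotype difference, fasted minus fed, the gap was -0.95 for Csad (-0.41 fasted and 0.54 fed). It was -0.94 for Dpys (-0.75 fasted and 0.20 fed) and -0.60 for Sardh (-0.35 fasted and 0.25 fed). For Bcat2 the gap of -0.98 in both forms is only a bound, since its fasted null pool was at the floor and its other pools read below 26 units. The gap of a gene is by construction the same number in both forms. A second, dimmer Hibch probe set had -0.19 in PPARα-null and 0.22 in wild-type liver for fasting, and a second Dpys probe set had -0.52 in the fasted and -0.11 in the fed state. A second Sardh probe set had -0.25 in the fasted and 0.19 in the fed state, neither larger than the scatter.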

How the results depend on the processing

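Of 56 alternative counts of genes past the threshold, 51 were within 1.5 times the reported count. These include the fed genotype counts, which were 0 in every setting and so add nothing on this point. Of 24 alternative medians, 22 kept their sign. With centring on bright probe sets the median log2 difference of the set was 0.051 in place of -0.10 between fasted PPARα-null and fasted wild-type liver, and 0.0389 in place of -0.09 for fasting in PPARα-null liver, where 3 genes in place of 5 were lower, beside 14.4% of all genes. With a 2-fold threshold 1 gene was higher and 1 lower between the fasted genotypes, beside 3.40% and 6.22% of all genes, and 7 were higher and 2 lower with fasting in PPARα-null liver, beside 5.41% and 9.08%. Past 1.5-fold, Hibch was lost without suffixed probe sets (-0.51 between the fasted genotypes), Dpys with averaged probe sets (-0.47), and Ddc in PPARα-null liver with centring (-0.58). For fasting in PPARα-null liver Hibch (-0.19) and Dpys (-0.37) were lost in the same settings. Kmo was lost there with centring (-0.49) and with quantile normalization (-0.54), and Cdo1 with quantile normalization (0.52). The Dpys average includes a probe set that lay under the floor on every array, averaged before the floor was set. An average of the brighter Dpys probe sets alone was not made. No paired analysis was possible because each group has 1 array. The cause of these changes was not tested. Dim genes such as Afmid, Bcat2 and Mccc2 lie close to the floor, and their differences are limited by signal over background.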
